A study of Mus musculus with 160 samples.

Results

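The genes described here are the cytochrome P450 family 2 (Cyp2) genes, taken as every protein-coding gene whose mouse symbol is Cyp2 followed directly by a letter. The rule found 49 genes among the 43432 in the deposited tables, of which 21551 are protein coding, and it passed over 8 pseudogenes with Cyp2 symbols. RNA was sequenced from liver, heart, tibialis muscle, cortex and striatum of 32 mice, which gave 160 libraries. There were 4 arms of 8 mice (4 males and 4 females each), all on a C57BL/6J background and all dosed by mouth 2 times a day. R6/2 mice, labelled Tg(HDexon1)62Gpb, received vehicle, 30 mg/kg or 100 mg/kg of CHDI-00390576, which the series title calls an inhibitor of class IIa histone deacetylases, and wild-type (WT) mice received vehicle. R6/2 is a fragment model of Huntington's disease: a transgene under the human huntingtin promoter carries exon 1 of human huntingtin with an expanded CAG repeat. No WT mice received the compound, so its effect can be read in R6/2 mice only. Age is not given in the labels used here.

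Cyp2 enzymes are haem monooxygenases of the endoplasmic reticulum that take electrons from the reductase Por and oxidise drugs, steroids, fatty acids and other small molecules. Most members are expressed in hepatocytes, and in rodents several differ between the sexes, because the pattern of growth hormone in blood differs between males and females and acts on liver genes through the transcription factor Stat5b. Other members, mainly of the Cyp2b and Cyp2c groups, respond to the xenobiotic receptors Car (Nr1i3) and Pxr (Nr1i2). The genes lie largely in tandem clusters, with 15 members on chromosome 7 (among them Cyp2a, Cyp2b, Cyp2e1 and Cyp2f2), 15 on chromosome 19 (Cyp2c), 8 on chromosome 15 (Cyp2d) and 8 on chromosome 4 (Cyp2j). Cyp2u1, Cyp2w1 and Cyp2ab1 lie alone on chromosomes 3, 5 and 16.

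Libraries held 31.5 to 37.2 M expected counts in liver and 30.1 to 39 M in the other tissues. Levels are given as CPM for 1 gene across mice, that is counts scaled to the library's total over the genes tested, adjusted by edgeR's TMM factor. Where genes are set beside each other, levels are given as FPKM, which is scaled to transcript length. Differences are log2 fold changes ± SE from edgeR's quasi-likelihood test, and a member is said to rise, fall or pass the test where its Benjamini-Hochberg adjusted p over all genes tested in that tissue is under 0.05. In liver 36 of the 49 members passed the filter on low counts, against 10 in heart, 21 in tibialis, 6 in cortex and 8 in striatum. The summed FPKM of 8 hepatocyte markers was 47656 to 68777 in the liver libraries. Mice are numbered within each tissue, arm and sex, so the same number in different tissues can stand for different mice. By a low median rank correlation with the tissue's other libraries, 3 liver libraries stood apart (WT male 3, R6/2 vehicle female 4 and R6/2 100 mg/kg male 4). Without them the number of members past the test was 12 against 12 for R6/2 vehicle against WT, 17 against 17 for the same in males, 4 against 4 for 100 mg/kg against vehicle, and 9 against 10 for the difference in the genotype effect between the sexes, and it differed more only where stated below. In a bulk sample, fewer cells of a type and less RNA per cell cannot be told apart.

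The Cyp2 genes were a liver family in these mice, led by Cyp2e1. In WT livers Cyp2e1, the ethanol-inducible member, stood highest at 4298 ± 687 FPKM (SD, n = 8), followed by Cyp2c29 at 1551 ± 287 FPKM. Cyp2f2, Cyp2c50, Cyp2a5, Cyp2d26, Cyp2d9, Cyp2a12, Cyp2d10 and Cyp2c70 came next, at means of 338 to 625 FPKM. Among these 8 the order is loose, since for example Cyp2c50 at 618 ± 123 FPKM and Cyp2a5 at 552 ± 299 FPKM differed by less than their SDs. Cyp2d9, a testosterone hydroxylase, had an SD close to its mean (370 ± 367 FPKM), and its male and female values are given below. Outside liver the family was sparse: it took 0.00219% to 0.0281% of counts, against 1.96% to 3.29% in liver. Cyp2c66, Cyp2j7, Cyp2j11 and Cyp2w1 were listed at 0 in every WT library of all 5 tissues.

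**Figure D1:**
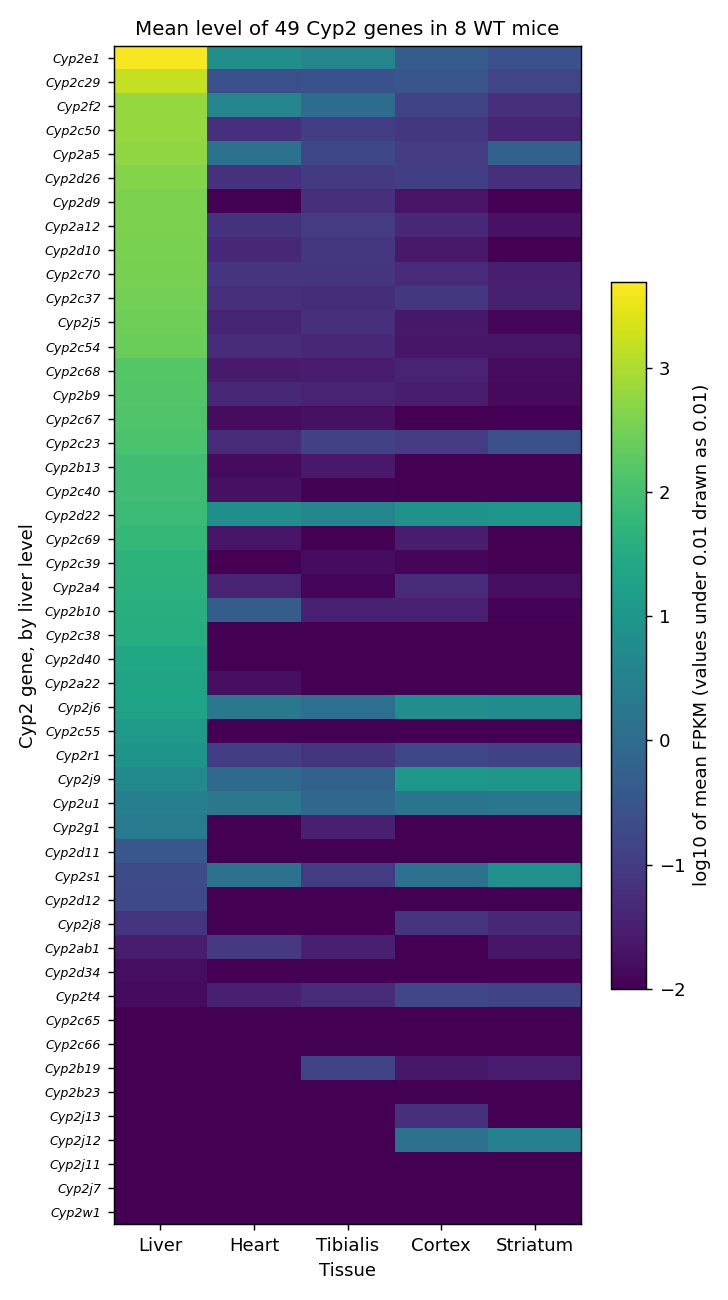
Mean FPKM of each of the 49 Cyp2 genes in the 8 WT mice (log10 scale, colour), with genes down the page in order of their liver level and tissues across. Most genes are bright only in the liver column, while Cyp2d22, Cyp2j6, Cyp2j9 and Cyp2u1 keep a level in all 5 tissues and Cyp2j12 shows in cortex (1.25 FPKM) and striatum (3.06 FPKM) but not in liver.

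Heart and tibialis shared their 5 highest members, and Cyp2d22 and Cyp2j9 were the highest in both brain regions. In heart the highest in WT mice by mean were Cyp2e1 (7.03 FPKM), Cyp2d22 (6.92 FPKM), Cyp2f2 (3.92 FPKM), Cyp2j6 (1.94 FPKM) and Cyp2u1 (1.82 FPKM). The Cyp2f2 mean came largely from WT male 2 (10.4 FPKM) and WT male 3, which was higher still, with the other 6 mice at 0.0143 to 0.387 FPKM and a median of 0.143 FPKM, below Cyp2j6 and Cyp2u1. In tibialis they were Cyp2d22 (3.95 FPKM), Cyp2e1 (3.92 FPKM), Cyp2j6 (1.21 FPKM), Cyp2f2 (1.01 FPKM) and Cyp2u1 (0.795 FPKM). In cortex Cyp2j9, a fatty acid epoxygenase found in brain, led with 10.7 FPKM, before Cyp2d22 (8.46 FPKM) and Cyp2j6 (6.11 FPKM), and in striatum Cyp2d22 (10.3 FPKM) and Cyp2j9 (10.2 FPKM) stood side by side, before Cyp2s1 (7.33 FPKM).

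As a sum, the family took more of the liver transcriptome in R6/2 mice. Its share of counts had a median of 2.57% in R6/2 vehicle (range 2.04% to 2.79%), 2.49% at 30 mg/kg (2.2% to 2.99%), 2.71% at 100 mg/kg (2.43% to 3.29%) and 2.1% in WT (1.96% to 2.25%). The lowest vehicle and 30 mg/kg livers lay inside the WT range, and all 100 mg/kg livers lay above it. Within the family's summed FPKM, Cyp2e1 held a median of 33.5% in R6/2 vehicle, 28.9% at 30 mg/kg, 24.8% at 100 mg/kg and 36.9% in WT. No test was made on these sums.

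In WT liver 2 members were higher and 10 lower in males than in females, 12 of the 36 tested, where 2.45% of all liver genes tested passed in either direction. The 10 lower in males, that is female-biased, were Cyp2b13, Cyp2b9, Cyp2a4, Cyp2c40, Cyp2c69, Cyp2a22, Cyp2c37, Cyp2c68, Cyp2b10 and Cyp2c38. The 2 higher in males were Cyp2d9 and Cyp2u1. The largest difference was in Cyp2b13, at 0.813, 0.931, 0.629 and 0.62 CPM in WT males and 209, 225, 448 and 542 CPM in WT females, a log2 difference of -8.88 ± 0.42 (adjusted p = 4.63e-15). Cyp2d9 ran the other way, with 1406, 865, 1592 and 1289 CPM in WT males and 70.3, 71.8, 85.1 and 42.7 CPM in WT females (4.25 ± 0.38, adjusted p = 1.27e-08). For both genes the groups of 4 did not overlap. The call on Cyp2c38 was lost without WT male 1, 3 or 4, with an adjusted p of up to 0.0613.

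Promoters are shown for 5 members that differed by sex and genotype, from the Cyp2a, Cyp2b, Cyp2c and Cyp2d groups. The promoter of Cyp2a5, the near-copy of Cyp2a4, is added, so that copies with like and with unlike single-gene values can be read side by side. Each is the 250 bases before the start of transcription in RefSeq on GRCm38.p6, 5′ to 3′ on the gene's strand. Gene starts in GENCODE M21 differ for some. Cyp2d9 starts there at chr15:82433437, so the region shown lies inside that gene model. The Cyp2a4, Cyp2a5 and Cyp2c69 regions run a little past their GENCODE starts. Capitals mark matches to letters searched on both strands: TATAAA (a core promoter element) in Cyp2a4, Cyp2a5 and, as its reverse complement, Cyp2d9; AGGTCA (a nuclear receptor half-site) in Cyp2b9 and Cyp2b13; and CAAAGTCCA (an element bound by Hnf4a) and the reverse complement of ATCAAT (a core bound by Hnf6) in Cyp2c69. The positions are chr7:26306942-26307191 (+) for Cyp2a4, chr7:26835089-26835338 (+) for Cyp2a5, chr7:26173159-26173408 (+) for Cyp2b9, chr7:26061245-26061494 (+) for Cyp2b13, chr19:39886770-39887019 (-) for Cyp2c69 and chr15:82452127-82452376 (+) for Cyp2d9.
Cyp2a4: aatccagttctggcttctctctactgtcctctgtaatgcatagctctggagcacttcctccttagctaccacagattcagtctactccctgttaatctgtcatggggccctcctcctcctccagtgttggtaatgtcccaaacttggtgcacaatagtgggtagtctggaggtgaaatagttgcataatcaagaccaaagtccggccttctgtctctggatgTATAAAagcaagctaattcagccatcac
Cyp2a5: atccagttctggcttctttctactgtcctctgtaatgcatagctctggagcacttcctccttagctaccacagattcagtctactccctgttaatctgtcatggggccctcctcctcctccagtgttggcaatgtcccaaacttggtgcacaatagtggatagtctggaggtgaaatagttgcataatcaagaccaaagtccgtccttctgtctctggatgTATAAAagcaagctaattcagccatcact
Cyp2b9: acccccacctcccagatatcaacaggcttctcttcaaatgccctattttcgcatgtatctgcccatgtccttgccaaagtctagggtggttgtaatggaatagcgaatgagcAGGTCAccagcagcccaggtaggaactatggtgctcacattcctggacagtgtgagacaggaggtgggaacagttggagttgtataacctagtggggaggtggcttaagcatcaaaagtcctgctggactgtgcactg
Cyp2b13: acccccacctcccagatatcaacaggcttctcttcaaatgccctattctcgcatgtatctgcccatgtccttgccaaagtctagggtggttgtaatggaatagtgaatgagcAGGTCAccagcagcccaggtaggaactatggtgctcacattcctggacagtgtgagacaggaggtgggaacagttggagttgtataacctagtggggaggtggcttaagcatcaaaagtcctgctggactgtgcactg
Cyp2c69: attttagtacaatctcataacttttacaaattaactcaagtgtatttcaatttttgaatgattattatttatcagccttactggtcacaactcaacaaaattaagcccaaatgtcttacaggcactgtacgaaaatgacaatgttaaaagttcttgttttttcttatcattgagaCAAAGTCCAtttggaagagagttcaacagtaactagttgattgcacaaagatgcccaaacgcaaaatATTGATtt
Cyp2d9: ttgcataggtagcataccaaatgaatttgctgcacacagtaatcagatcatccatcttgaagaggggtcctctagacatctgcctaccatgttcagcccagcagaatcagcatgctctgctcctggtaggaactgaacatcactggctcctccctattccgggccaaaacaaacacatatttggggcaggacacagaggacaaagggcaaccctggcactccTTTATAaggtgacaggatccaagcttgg

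The promoters of Cyp2b9 and Cyp2b13, which were both female-biased, differed at 2 of 250 aligned bases. Those of Cyp2a4, which was female-biased, and Cyp2a5, which did not pass the sex test, differed at 4 of 249. Summed over these 2 near-copies, the WT sex difference did not pass (-0.39 ± 0.36, adjusted p = 0.73). In WT males Cyp2a5 had 652 to 1615 CPM and Cyp2a4 2.84 to 4.58 CPM. The sum therefore mostly follows Cyp2a5 and cannot test Cyp2a4 alone. How reads were divided between the copies was not tested, so the contrast between them stays uncertain. A RefSeq promoter was at hand for 41 of the 49 members. Members are counted by gene, with a match in any promoter of the gene, and all genes by promoter. The 2 shares are therefore not measured alike. Among them CAAAGTCCA was in 6 (14.6%), namely Cyp2c40, Cyp2c65, Cyp2c67, Cyp2c68, Cyp2c69 and Cyp2c70, against 0.384% of 32851 promoters of all genes. ATCAAT was in 5 (12.2%, all of them Cyp2c genes) against 6.72%, AGGTCA in 10 (24.4%) against 14% and TATAAA in 18 (43.9%) against 12.4%. TTCNNNGAA, the core bound by Stat5 proteins, was in 2 (4.88%, Cyp2j11 and Cyp2j12) against 7.02%. Tandem copies share their promoter letters, so these counts are not independent, and a match is a description of the sequence only.

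The genotype effect in liver was tested in each sex. In the vehicle arms 11 of the 36 members were higher and 6 lower in R6/2 than in WT males, where 10.1% of all liver genes tested passed in either direction (5.69% higher, 4.42% lower). The same comparison in females gave 3 higher and 0 lower, where 5.34% of genes passed (2.7% higher, 2.64% lower). The difference between these effects, males minus females, passed for 10 members (8 higher, 2 lower), where 1.79% of genes passed (0.871% higher, 0.918% lower). These 10, Cyp2b9, Cyp2b13, Cyp2a22, Cyp2c40, Cyp2c69, Cyp2a4, Cyp2b10, Cyp2c37, Cyp2d9 and Cyp2u1, were also among the 12 that differed by sex in WT mice. The sex and genotype comparisons share the WT libraries, so this overlap is not a separate result.

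Cyp2b13 had 196, 122, 181 and 200 CPM in R6/2 vehicle males and 0.813, 0.931, 0.629 and 0.62 CPM in WT males, a log2 fold change of 7.85 ± 0.40 (adjusted p = 9.18e-14). In females it had 357, 235, 132 and 221 CPM in R6/2 vehicle and 209, 225, 448 and 542 CPM in WT (-0.59 ± 0.28, adjusted p = 0.215), and the groups overlapped. Its neighbour Cyp2b9 had 679, 759, 654 and 848 CPM in R6/2 vehicle males and 10.1, 26.3, 10.7 and 14.4 CPM in WT males (5.58 ± 0.27, adjusted p = 2.76e-14). The Cyp2b9 values of R6/2 vehicle females, 454, 509, 459 and 483 CPM, lay among the 368, 463, 654 and 773 CPM of WT females. R6/2 vehicle males thus lay above R6/2 vehicle females for Cyp2b9, and below WT females for Cyp2b13.

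Cyp2a22 followed the Cyp2b pair, with 217, 137, 144 and 267 CPM in R6/2 vehicle males and 6.53, 6.77, 4.51 and 4.41 CPM in WT males (5.10 ± 0.40, adjusted p = 9.81e-10), and a change in females of 0.04 ± 0.33. Cyp2c40, an arachidonic acid hydroxylase, had 169, 326, 365 and 294 CPM in R6/2 vehicle males and 2.69, 7.67, 1.47 and 2.24 CPM in WT males (6.35 ± 0.52, adjusted p = 1.99e-09). In females Cyp2c40 did not pass (1.15 ± 0.41, adjusted p = 0.0928).

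Cyp2a4 and Cyp2c69 rose in both sexes. Cyp2a4, a testosterone hydroxylase, had 348, 256, 223 and 329 CPM in R6/2 vehicle males and 2.84, 3.45, 3.21 and 4.58 CPM in WT males (6.36 ± 0.45, adjusted p = 1.49e-10). In females it had 1310, 675, 875 and 1483 CPM in R6/2 vehicle and 91.9, 102, 141 and 311 CPM in WT (2.75 ± 0.37, adjusted p = 0.000132). The rise in Cyp2a4 was therefore larger in males by 3.61 ± 0.52 log2 units (adjusted p = 0.000184). Cyp2c69 had 246, 671, 272 and 883 CPM in R6/2 vehicle males and 1.44, 3.35, 2.24 and 3.34 CPM in WT males (7.64 ± 0.59). In females Cyp2c69 had 975, 1432, 1536 and 2889 CPM in R6/2 vehicle and 436, 210, 93 and 162 CPM in WT (2.92 ± 0.47, adjusted p = 0.000798). The remaining member past the test in females was Cyp2g1, known for its expression in olfactory tissue, with changes of 1.54 ± 0.32 in males and 1.60 ± 0.32 in females.

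**Figure D2:**
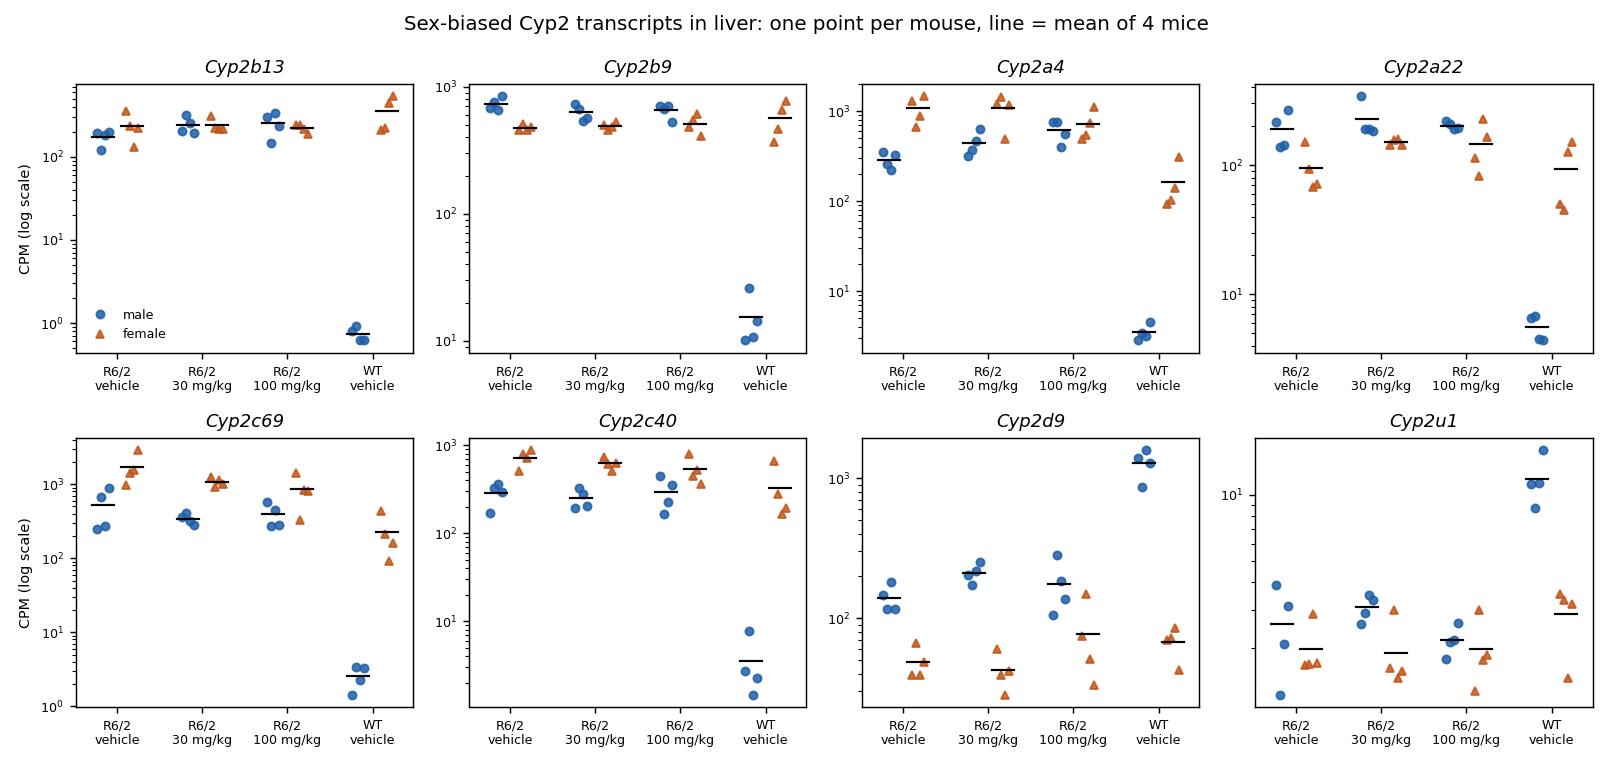
CPM on a log scale in each liver for 8 sex-biased Cyp2 genes, by arm and sex (circles males, triangles females, line the mean of 4 mice). In the first 6 panels the WT males lie below all other groups, as with Cyp2b13 at 0.62 to 0.931 CPM, and in the panels of Cyp2d9 and Cyp2u1 they lie above all other groups.

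The male-biased members moved the other way in males. Cyp2d9 had 147, 116, 182 and 116 CPM in R6/2 vehicle males and 1406, 865, 1592 and 1289 CPM in WT males (-3.20 ± 0.36, adjusted p = 8.1e-07), so R6/2 males were low but still above the 39.5, 66.1, 39.4 and 48.6 CPM of R6/2 vehicle females. Cyp2u1, a fatty acid hydroxylase, had 3.87, 1.23, 2.09 and 3.13 CPM in R6/2 vehicle males and 11.2, 8.76, 11.3 and 16 CPM in WT males (-2.19 ± 0.31, adjusted p = 2.45e-05). The sex difference in the Cyp2u1 effect was near the threshold (-1.67 ± 0.44, adjusted p = 0.0413), and it was lost in 14 of the 32 fits that left out 1 library, with an adjusted p of up to 0.102. Cyp2d11 (-1.72), Cyp2d10 (-0.68), Cyp2f2 (-0.64) and Cyp2d22 (-0.37) also fell in males, the last of these not without WT male 1 or 3 (adjusted p up to 0.0607).

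The smaller risers in males were Cyp2b10 (1.83 ± 0.37), the classical phenobarbital-inducible gene, Cyp2c37 (1.64 ± 0.20), Cyp2c38 (1.51 ± 0.35) and Cyp2c68 (1.29 ± 0.25). The most abundant members did not pass in either sex: Cyp2e1 changed by -0.22 in males and 0.15 in females, and Cyp2c29 by 0.21 in males and -0.39 in females, all on the log2 scale. With the sexes averaged, as in the fit with arm and sex, 6 members rose and 6 fell in R6/2 vehicle against WT, where 12.8% of genes passed (6.5% higher, 6.32% lower). In that fit Cyp2b9 (1.35 ± 0.65, adjusted p = 0.174) and Cyp2b13 (0.75 ± 0.86, adjusted p = 0.617) did not pass.

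**Figure D3:**
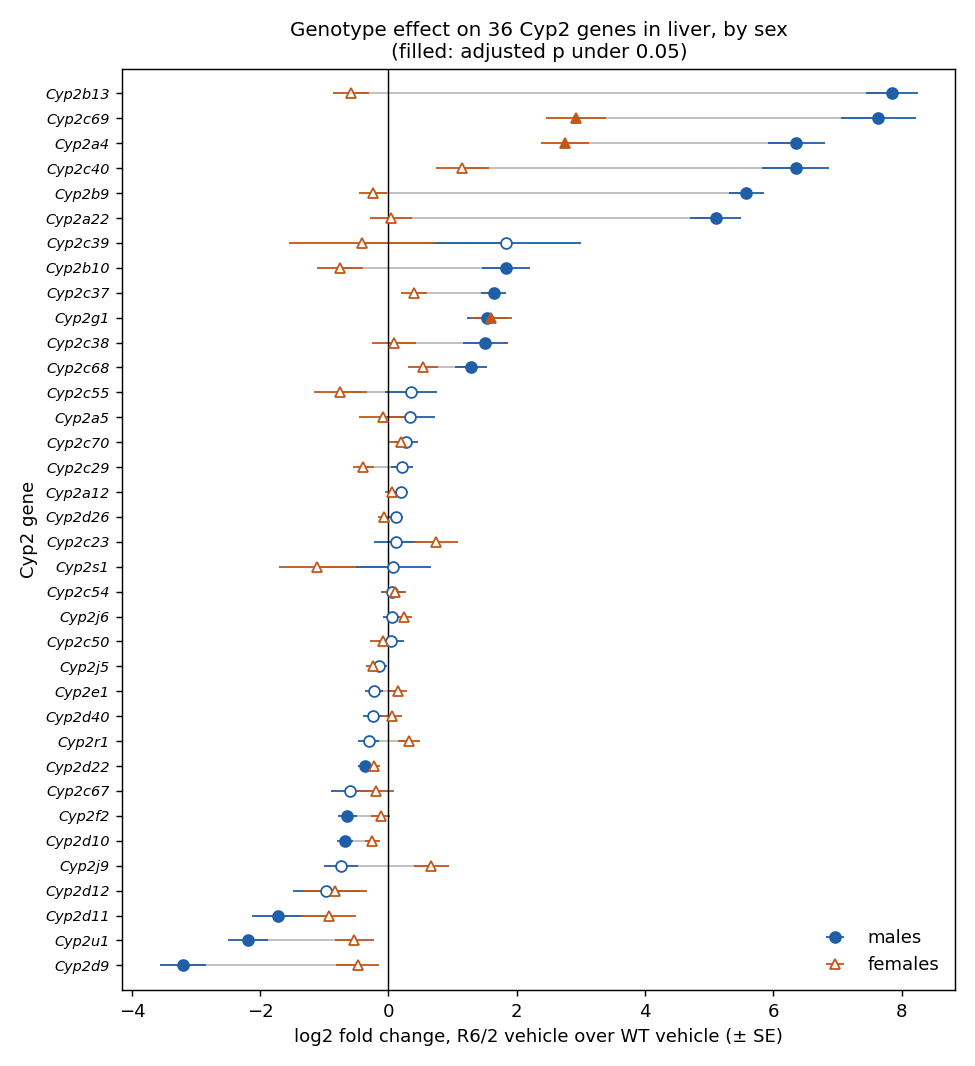
Log2 fold change, R6/2 vehicle over WT vehicle, of the 36 Cyp2 genes tested in liver, in males (circles) and females (triangles), with bars of ± 1 SE and filled symbols for an adjusted p under 0.05. Males spread from -3.20 for Cyp2d9 to 7.85 for Cyp2b13, while the filled female symbols are Cyp2c69, Cyp2a4 and Cyp2g1.

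Sex differences inside R6/2 were tested in the vehicle and 100 mg/kg arms, not at 30 mg/kg. In R6/2 vehicle livers, males against females, 1 member was higher (Cyp2d9, 1.54 ± 0.34, adjusted p = 0.0356) and 1 lower (Cyp2a4, -1.91 ± 0.36, adjusted p = 0.0119), where 0.496% of genes passed, and 11 members had an unadjusted p under 0.05. No member passed there without the 3 libraries that stood apart, or without the 2 of them with few reads on long transcripts (R6/2 vehicle female 4 and R6/2 100 mg/kg male 4). Leaving out R6/2 vehicle male 3 alone lost Cyp2a4 (adjusted p = 0.0747), and leaving out any of 6 vehicle mice lost Cyp2d9 (adjusted p up to 0.132). At 100 mg/kg 0 members passed by edgeR's quasi-likelihood test, where 0.301% of genes passed, with 9 at an unadjusted p under 0.05 and 3 past the test in DESeq2. The smallest p there was that of Cyp2d9 (1.2 ± 0.34, adjusted p = 0.107). At 30 mg/kg, with no test, Cyp2d9 had 173 to 252 CPM in males and 28.4 to 59.7 CPM in females, Cyp2c69 277 to 407 CPM in males and 912 to 1236 CPM in females, and Cyp2c40 193 to 330 CPM in males and 511 to 740 CPM in females.

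Several of these genes are near-copies, and reads may be divided between them by the authors' quantification. Their longest open reading frames were 98.5% identical for Cyp2a4 and Cyp2a5, 97.0% for Cyp2a12 and Cyp2a22, 96.5% to 98.1% among Cyp2c40, Cyp2c67, Cyp2c68 and Cyp2c69, and 95.1% to 96.1% among Cyp2c37, Cyp2c50 and Cyp2c54, so the single-gene values of all of them are uncertain. Summed over such groups, the sex difference in the genotype effect passed for 5 of 29 (3 higher, 2 lower). A sum mostly follows its more abundant copies, so it cannot test a scarcer copy alone. In WT males Cyp2a22 had 4.41 to 6.77 CPM beside Cyp2a12 at 484 to 632 CPM. Cyp2c40 had 1.47 to 7.67 CPM there, beside Cyp2c67 at 275 to 391 CPM. The sum of Cyp2a4 and Cyp2a5 had a median of 1693 CPM in R6/2 vehicle males and 1077 CPM in WT males, changed by 0.61 ± 0.37 in males and 0.67 ± 0.37 in females, and passed in neither sex. The Cyp2c40, Cyp2c67, Cyp2c68 and Cyp2c69 sum rose by 1.55 ± 0.28 in males (adjusted p = 0.000573) and by 1.46 ± 0.28 in females (adjusted p = 0.00352), with no difference between the sexes past the test (0.09 ± 0.39). The Cyp2a12 and Cyp2a22 sum rose by 0.54 ± 0.12 in males and the Cyp2c37, Cyp2c50 and Cyp2c54 sum by 0.53 ± 0.17. In WT, males against females, the Cyp2a12 sum (-0.48 ± 0.12, adjusted p = 0.0324) and the Cyp2c40 sum (-1.27 ± 0.28, adjusted p = 0.0103) passed. The Cyp2a4 sum (-0.39 ± 0.36, adjusted p = 0.73) and the Cyp2c37 sum (-0.57 ± 0.17, adjusted p = 0.0833) did not. In R6/2 vehicle, males against females, the Cyp2c40 sum passed narrowly (-1.18 ± 0.28, adjusted p = 0.0499). The Cyp2a4 sum (-0.45 ± 0.37, adjusted p = 0.583), the Cyp2a12 sum (0.0 ± 0.12, adjusted p = 0.993) and the Cyp2c37 sum (-0.15 ± 0.17, adjusted p = 0.708) did not. Cyp2b9 and Cyp2b13 (92.7% identical), Cyp2b10, Cyp2d9 and Cyp2u1 were not summed and were the 5 that passed.

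Sex-biased liver genes outside the family moved in the same comparison. Of all liver genes tested 5.69% were higher and 4.42% lower past the test in R6/2 males. Of 13 listed female-biased genes 10 rose and 0 fell in R6/2 males, with a median log2 change of 4.47 beside -0.00 over all genes, among them Hao2 (6.85 ± 0.70), a peroxisomal hydroxy acid oxidase. Of 13 listed male-biased genes 13 fell in R6/2 males (median -3.49), among them the pheromone carrier Mup20 (-5.14 ± 0.57) and the steroid enzyme Hsd3b5 (-7.20 ± 1.12). In females 3 of the female-biased and 2 of the male-biased genes rose, where 2.7% of all liver genes tested were higher past the test. These lists were drawn up with earlier results on these samples known, so their direction is not independent evidence.

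Of 8 listed regulators of liver sex bias, Cux2, a repressor found in female liver, rose by 6.64 ± 0.84 in R6/2 males, Prlr by 2.27 ± 0.19 and Socs2 by 2.92, while Bcl6, a male-biased repressor, fell by 3.15 on the log2 scale and Ghr by 0.37. Stat5b itself changed by -0.12 ± 0.17 (adjusted p = 0.722). Of 25 listed regulators of Cyp2 genes 2 rose (among them Esr1, 1.87) and 1 fell (Nr1i2, -0.60 ± 0.11) in R6/2 males. Of all liver genes tested 10.1% passed there (5.69% higher, 4.42% lower). Hnf4a changed by -0.34 ± 0.11 (adjusted p = 0.0573). Beside these changes, 4 of 6 leukocyte markers and 2 of 6 Kupffer cell and macrophage markers rose in R6/2 males. In the same comparison 2 of 8 hepatocyte markers and 1 Kupffer cell marker fell, against the same shares of all genes. The summed leukocyte markers had a median of 148 FPKM in R6/2 vehicle (121 to 194) and 87.2 FPKM in WT (53.2 to 132). Their part in the Cyp2 changes was not tested.

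The dosed R6/2 arms were also set against WT. At 100 mg/kg 11 members were higher and 6 lower than in WT, where 15% of genes passed (7.61% higher, 7.44% lower), and at 30 mg/kg 7 were higher and 6 lower, where 8.84% passed (4.43% higher, 4.41% lower). Dosed males were not tested against WT males alone, and values are given for Cyp2b13 and Cyp2d9. In males Cyp2b13 had 207, 323, 254 and 192 CPM at 30 mg/kg, 303, 145, 334 and 233 CPM at 100 mg/kg, and 0.62 to 0.931 CPM in WT. Cyp2d9 had 204, 173, 216 and 252 CPM in males at 30 mg/kg, 105, 281, 183 and 136 CPM at 100 mg/kg, and 865 to 1592 CPM in WT. Against R6/2 vehicle, with sexes averaged, 100 mg/kg changed Cyp2b13 by 0.33 ± 0.77 and Cyp2d9 by 0.55 ± 0.37, which did not pass.

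The compound raised 3 members in R6/2 liver at 100 mg/kg and lowered 1. These 4 of 36 (11.1%) stand beside 2.06% of all liver genes tested (1.39% higher, 0.676% lower). The 3 that rose, Cyp2c55, Cyp2b10 and Cyp2c29, are genes known in mice as targets of the xenobiotic receptor Car, and the 1 that fell was Cyp2d40. Members of the Cyp2b and Cyp2c groups respond to Pxr as well, and the activity of neither receptor was tested. The median change over the 36 members was 0.01, beside -0.01 over all genes.

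Cyp2c55 had 21.7, 17.5, 46.5 and 37 CPM in males and 17, 19, 7.15 and 18.3 CPM in females on vehicle. At 30 mg/kg the values were 53, 24.6, 43.1 and 56.4 CPM in males and 20.3, 43.7, 35.1 and 18.3 CPM in females, and at 100 mg/kg 69.8, 136, 134 and 195 CPM in males and 35.5, 80.5, 68.8 and 104 CPM in females. Every 100 mg/kg mouse thus lay above every vehicle mouse of its sex. The log2 fold change at 100 mg/kg was 2.17 ± 0.31 (adjusted p = 0.000108), and at 30 mg/kg it was 0.72, which did not pass.

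Cyp2b10 had 104, 140, 116 and 160 CPM in males and 53.2, 90.8, 65.1 and 89.3 CPM in females on vehicle. At 30 mg/kg it had 276, 111, 196 and 216 CPM in males and 118, 122, 229 and 130 CPM in females, and at 100 mg/kg 359, 297, 539 and 455 CPM in males and 168, 398, 395 and 440 CPM in females. All 100 mg/kg mice were above all vehicle mice. The change was 1.89 ± 0.36 at 100 mg/kg (adjusted p = 0.00285) and 0.77 at 30 mg/kg (adjusted p = 0.649).

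Cyp2c29, the second most abundant member, had 2938, 3225, 3009 and 3793 CPM in males and 2284, 2691, 1719 and 2976 CPM in females on vehicle. It had 4508, 4598, 5379 and 6243 CPM in males and 2786, 3450, 3448 and 3046 CPM in females at 30 mg/kg, and 6332, 6307, 8445 and 6046 CPM in males and 4155, 6396, 5599 and 5981 CPM in females at 100 mg/kg. The change was 1.13 ± 0.14 at 100 mg/kg (adjusted p = 2.7e-05), the smallest p among the members. At 30 mg/kg it was 0.55 ± 0.14 (adjusted p = 0.6), with all 4 males above all vehicle males. On the length-scaled FPKM measure, Cyp2c29 had 2437 to 4860 FPKM at 100 mg/kg and 1043 to 2124 FPKM on vehicle, beside Cyp2e1 at 2881 to 4793 FPKM at 100 mg/kg and 3644 to 5152 FPKM on vehicle. Cyp2e1 did not pass (-0.31 ± 0.12, adjusted p = 0.187).

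**Figure D4:**
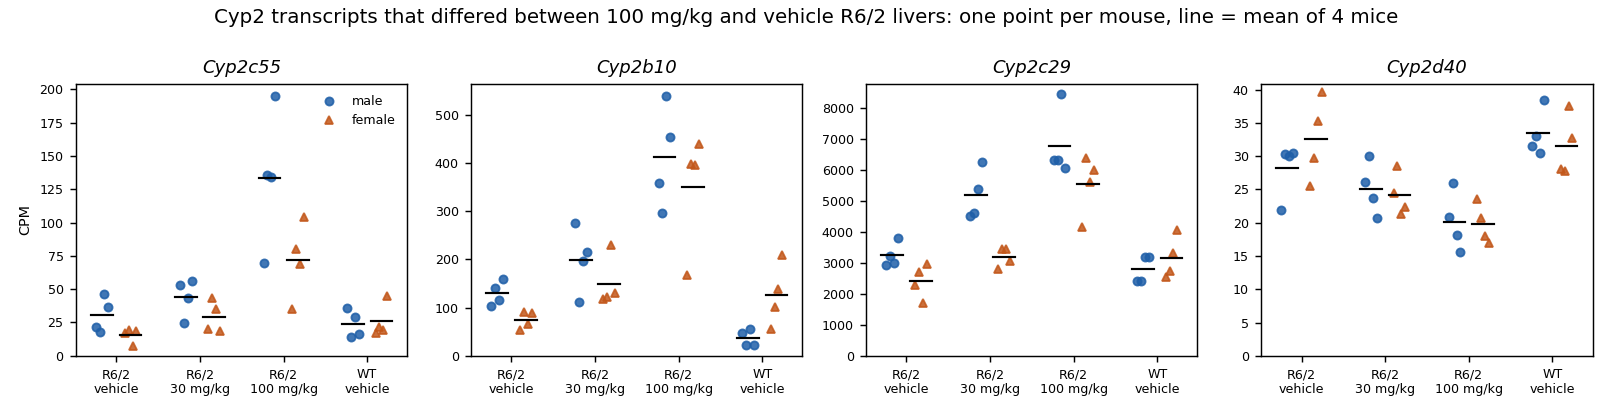
CPM in each liver for the 4 Cyp2 genes past the test at 100 mg/kg against vehicle, by arm and sex (circles males, triangles females, line the mean of 4 mice). Cyp2c55, Cyp2b10 and Cyp2c29 are highest at 100 mg/kg with 30 mg/kg between that arm and vehicle, and Cyp2d40 is lowest there, at 15.6 to 26 CPM.

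Cyp2d40 had 15.6 to 26 CPM at 100 mg/kg and 21.9 to 39.7 CPM on vehicle (-0.60 ± 0.11, adjusted p = 0.00221), so the groups overlapped. It had 20.7 to 30 CPM at 30 mg/kg (-0.30, adjusted p = 0.627). At 30 mg/kg against vehicle 0 of 36 members passed by edgeR's quasi-likelihood test, where 0% of genes passed, with 5 at an unadjusted p under 0.05 and 1 past the test in DESeq2. At 100 against 30 mg/kg 0 members passed, where 0.0067% of genes passed, with 5 at an unadjusted p under 0.05 and 2 past the test in DESeq2. Cyp2c55 was nearest there (1.45 ± 0.30, adjusted p = 0.0978). The effect of 100 mg/kg did not differ between males and females past the test for any member, where 0% of genes passed (6 at an unadjusted p under 0.05, 0 in DESeq2), and Cyp2a4 had the smallest p (1.68 ± 0.50, adjusted p = 0.137).

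Of 12 listed Car targets outside the family 6 rose, 0 fell and 6 did not pass at 100 mg/kg, with a median of 0.56. This list too was drawn up with earlier results on these samples known, so its direction is not independent evidence. Of all liver genes tested 2.06% passed there (1.39% higher, 0.676% lower). Among the 12 were the glutathione transferases Gsta1 (3.0 ± 0.53, adjusted p = 0.00179), Gstm3 (2.39 ± 0.33, adjusted p = 8.69e-05) and Gsta2 (1.35 ± 0.27) and the cytochrome P450 Cyp3a11 (0.57 ± 0.15). Car itself, Nr1i3, changed by -0.56 ± 0.16 (adjusted p = 0.0571) and Pxr, Nr1i2, by -0.04 ± 0.09. Of the 25 regulators 3 fell (Cebpa, Hlf and the bile acid receptor Nr1h4, -0.35 ± 0.09) and 0 rose. Of 10 listed partners of the enzymes, in electron transfer and haem synthesis, 0 passed at 100 mg/kg, beside the same 2.06% of all genes. Among them Por changed by 0.01 ± 0.24 and Alas1, the first enzyme of haem synthesis, by -0.74 ± 0.44. None of the hepatocyte, Kupffer cell, leukocyte, sinusoidal endothelial, stellate cell or cholangiocyte markers passed at 100 mg/kg, while the summed endothelial markers had a median of 78.7 FPKM (36.4 to 131) at 100 mg/kg and 127 FPKM (111 to 141) on vehicle. Their part in the Cyp2 changes was not tested.

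In heart 2 of 10 members tested rose in R6/2 vehicle against WT and 0 fell, where 14.4% of genes passed (6.96% higher, 7.46% lower). Cyp2j6, an arachidonic acid epoxygenase, had 6.88 to 9.10 CPM in R6/2 vehicle and 6.63 to 8.19 CPM in WT (0.16 ± 0.06, adjusted p = 0.0435). Cyp2j9 had a median of 2.44 CPM in R6/2 vehicle (highest 3.29) and 2.01 CPM in WT (highest 2.63) (0.33 ± 0.11, adjusted p = 0.0426). The groups overlapped for both genes, and 13 and 10 of the fits that left out 1 library lost the call on Cyp2j6 and on Cyp2j9, with adjusted p values of up to 0.12 and 0.098. Without the 10 libraries with the airway marker described next, neither passed, with an adjusted p of 0.0544 for Cyp2j6 and 0.0858 for Cyp2j9.

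Markers of airway and lung were high in some heart libraries, and Cyp2f2 and Cyp2a5 were high in the same ones. The club cell marker Scgb1a1 was at 1 FPKM or more in 10 heart libraries. Cyp2f2, an enzyme of lung club cells, was at 1.63 to 94.0 CPM in these 10 and at 0.0275 to 0.721 CPM in the other 22, and Cyp2a5 at 0.438 to 39.5 CPM in the 10 and 0 to 1.55 CPM in the 22. By arm, Cyp2f2 reached 66.4 CPM in R6/2 vehicle, 85.8 CPM at 30 mg/kg, 94.0 CPM at 100 mg/kg and 39.8 CPM in WT, with medians of 0.289 to 0.491 CPM. Heart Cyp2e1 ran from 3.58 to 91.9 CPM in R6/2 vehicle and 4.04 to 32.4 CPM in WT, beside a summed level of 6 adipocyte markers of 15.3 to 272 FPKM in R6/2 vehicle and 12.0 to 86.1 FPKM in WT, whose part in it was not tested.

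In tibialis 3 of 21 members rose and 1 fell in R6/2 vehicle against WT, where 45.9% of genes passed (23.6% higher, 22.2% lower), so the members' share was below that of all genes. Cyp2j6 rose by 0.26 ± 0.06 (adjusted p = 0.00131), with 6.46 to 8.26 CPM in R6/2 vehicle and 5.18 to 6.46 CPM in WT. Cyp2d22 fell by 0.26 on the log2 scale (adjusted p = 0.0336), with 11.1 to 14.1 CPM in R6/2 vehicle and 12.4 to 17.1 CPM in WT. On log2 FPKM its change was 0.38, below the 0.63 by which the median of all genes moved. Relative to all genes it was thus lower there too.

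The other tibialis calls, on Cyp2c69 (6.59 ± 2.11, adjusted p = 0.0107) and Cyp2a4 (4.34 ± 1.69, adjusted p = 0.0347), went with a liver transcript. Albumin (Alb) was at 10 FPKM or more in 13 tibialis libraries, and the highest were R6/2 30 mg/kg female 4 with 565 FPKM and R6/2 vehicle female 1 with 261 FPKM. Those libraries also had the highest Cyp2a4, 20.3 and 4.76 CPM, and the highest Cyp2c69, 12.0 and 6.45 CPM. The medians of R6/2 vehicle were 0.1 CPM for Cyp2a4 and 0.0845 CPM for Cyp2c69, and those of WT were 0. Without R6/2 vehicle female 1 the adjusted p was 0.162 for Cyp2c69 and 0.345 for Cyp2a4, and without all 13 libraries 1 member of 11 passed.

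In cortex 2 of 6 members rose and 2 fell in R6/2 vehicle against WT, where 53.9% of genes passed (28.1% higher, 25.8% lower). In striatum 1 of 8 rose and 5 fell, where 42.4% of genes passed (22.6% higher, 19.8% lower). Set against these backgrounds, the share of members called is given as a description. In striatum Cyp2s1 had 7.45 to 11 CPM in R6/2 vehicle and 17.7 to 26.0 CPM in WT (-1.26 ± 0.12, adjusted p = 1.15e-09). Cyp2a5 had 0.03 to 0.148 CPM in R6/2 vehicle and 0.753 to 1.42 CPM in WT (-3.68 ± 0.27, adjusted p = 1.95e-12), a low level in both but with no overlap. The dosed striata stayed with vehicle, at 6.64 to 12.1 CPM of Cyp2s1 at 30 mg/kg and 7.22 to 14.2 CPM at 100 mg/kg.

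Cyp2d22 and Cyp2j9 fell and Cyp2j6 rose in both brain regions. In cortex Cyp2d22 had 14.1 to 19.5 CPM in R6/2 vehicle and 22.3 to 26.6 CPM in WT (-0.52 ± 0.07, adjusted p = 7.04e-08). In striatum it had 15.3 to 30.1 CPM in R6/2 vehicle and 25.8 to 35.3 CPM in WT (-0.65 ± 0.09). The overlap came from R6/2 vehicle male 2 alone, with the other vehicle mice at 15.3 to 19.1 CPM. Cyp2j9 changed by -0.36 ± 0.07 in cortex and -0.31 ± 0.08 in striatum, and Cyp2j6 by 0.17 ± 0.04 in cortex and 0.24 ± 0.05 in striatum. Cyp2c23 fell in striatum (-1.12 ± 0.30, adjusted p = 0.00359). Cyp2j12 rose in cortex (0.34 ± 0.12, adjusted p = 0.0183), a call lost without WT female 4 (adjusted p = 0.0508). That cortex library had 30.9 FPKM of albumin, with 4.94 CPM of Cyp2c29 and 7.03 CPM of Cyp2e1, against 0 CPM and 0 to 0.154 CPM in the other 7 WT cortices. The striatum library of WT female 4 and the heart library of WT male 4 also had albumin above 10 FPKM, at 15.5 and 32.1 FPKM, and its part in the results was not tested.

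**Figure D5:**
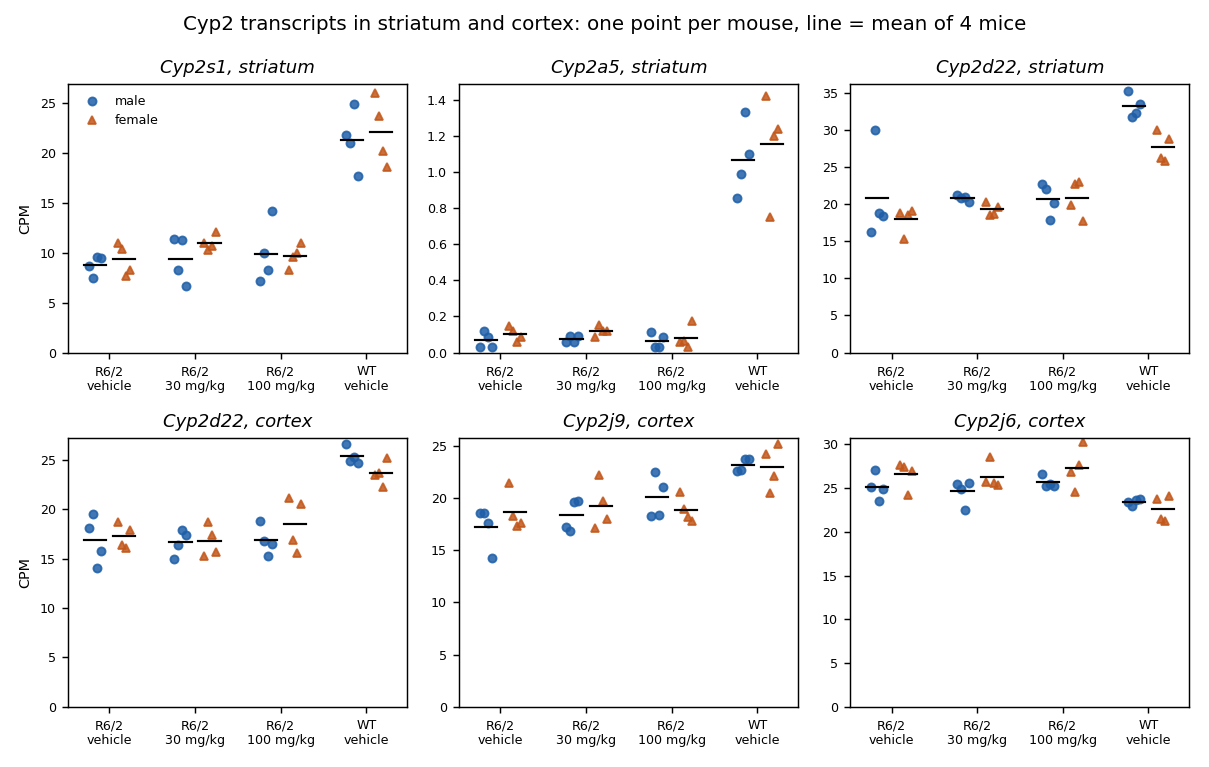
CPM in each library for Cyp2s1, Cyp2a5 and Cyp2d22 in striatum and Cyp2d22, Cyp2j9 and Cyp2j6 in cortex, by arm and sex (circles males, triangles females, line the mean of 4 mice). Striatal Cyp2s1 lies at 6.64 to 14.2 CPM over the R6/2 arms and 17.7 to 26.0 CPM in WT. R6/2 and WT overlap for striatal Cyp2d22 through R6/2 vehicle male 2, at 30.1 CPM against WT from 25.8 CPM. They also overlap for cortical Cyp2j9 (to 22.5 CPM at 100 mg/kg and from 20.5 CPM in WT).

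Cell type markers moved with genotype in both brain regions. The 6 summed markers of striatal projection neurons had a median of 823 FPKM (633 to 1164) in R6/2 vehicle striatum and 2536 FPKM (1695 to 2993) in WT striatum. In cortex the 6 summed neuron markers had a median of 1667 FPKM in R6/2 vehicle and 2363 FPKM in WT, and the 6 summed astrocyte markers 450 FPKM in R6/2 vehicle and 658 FPKM in WT. Their part in the Cyp2 changes was not tested. All 8 WT libraries of cortex and of striatum stood apart, a flag set by correlation with the tissue's other libraries, most of them R6/2. The flag therefore cannot be told apart from genotype there. The mitochondrial share of counts was 7.87% to 9.81% in WT cortex and 8.04% to 10.45% in R6/2 vehicle cortex. In striatum it was 9.49% to 11.25% in WT and 8.56% to 17.49% in R6/2 vehicle. No WT library of these regions was flagged for few reads on long transcripts. In striatum 1 R6/2 vehicle library and 2 at 100 mg/kg were so flagged. 1 WT female library in cortex and 1 in striatum carried sex-specific genes of the other sex, and without them the counts of members past the test were 4 in cortex and 6 in striatum, as with them.

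Outside liver the compound moved no member past the test. At both doses 0 members passed in heart, tibialis, cortex and striatum by edgeR's quasi-likelihood test, DESeq2 and limma, where the share of all genes passing was 0.0126% in heart (0.00632% in each direction) and 0.00571% in cortex at 100 mg/kg, and 0% in the others. At an unadjusted p under 0.05 there was 1 member at 30 mg/kg in striatum, Cyp2u1 (0.29 ± 0.13, adjusted p = 0.745), and 0 in the other comparisons. The nearest at 100 mg/kg were Cyp2d22 in heart (0.17 ± 0.12), Cyp2c23 in tibialis (-0.87 ± 0.69), and Cyp2j9 in cortex (0.12 ± 0.07) and striatum (0.10 ± 0.08).

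The members below the liver filter were Cyp2ab1, Cyp2b19, Cyp2b23, Cyp2c65, Cyp2c66, Cyp2d34, Cyp2j7, Cyp2j8, Cyp2j11, Cyp2j12, Cyp2j13, Cyp2t4 and Cyp2w1, and they have no test in liver. Among them Cyp2c65 and Cyp2c66, 96.3% identical in their open reading frames, summed to 0.0851 to 0.259 CPM in males and 0.027 to 0.194 CPM in females at 100 mg/kg, and to 0 to 0.0301 CPM in males and 0 to 0.0288 CPM in females on vehicle. These are a few counts per library at most.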

How the data were processed

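RNA from 5 tissues of 32 mice was measured in 160 libraries. The authors deposited expected counts and FPKM per gene, per the file headers. CASAVA 1.8.2 is named per the submitters' processing notes, while for the aligner, quantifier and build a name was not given in the sources used here. Expected counts were rounded to whole numbers (68.1% of values above 0 were whole within 1e-09). Symbols came from GENCODE M21 for 42548 of 43432 gene IDs. No value column was unused (0).

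Each tissue was fitted in edgeR 4.0.16 (R 4.3.3) with a mean per arm and a term for sex, after the filter on low counts by arm and TMM scaling, and the quasi-likelihood test was adjusted by Benjamini-Hochberg over all genes tested. Liver sex contrasts came from a fit with a mean for each arm and sex. Alternatives used DESeq2 1.42.0 and limma 3.58.1 on log2(FPKM + 0.1) for genes with a mean of at least 0.5 FPKM. A library stood apart where its median rank correlation with the tissue's other libraries lay more than 3 median absolute deviations below the tissue's median. Other quality measures did not enter this flag. Near-copies were genes whose longest open reading frames in GENCODE were at least 95% identical. The code was tested on simulated data.

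The members and gene lists were chosen with earlier results of these data known. Named in liver were the 10 members highest in WT and every member past the test (up to 20 per comparison by p), and in other tissues the 5 highest and up to 8 past the test. Where none passed, the member of smallest p was named. From the lists, up to 4 genes past the test per comparison and Nr1i3, Nr1i2, Por, Nr1h4, Hnf4a, Stat5b, Bcl6, Cux2 and Alas1 could be named, and others named were chosen after their values were seen. Mice are the replicates, and p-values weigh each difference against the variation between these mice.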

Additional observations from a re-analysis of the deposited data

Results flagged for a closer look

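The effect of genotype in liver differed between males and females for 10 members, by the test of that difference. The log2 differences, males minus females, were 5.82 for Cyp2b9, 8.44 for Cyp2b13, 5.06 for Cyp2a22, 5.20 for Cyp2c40, 4.72 for Cyp2c69, 3.61 for Cyp2a4, 2.59 for Cyp2b10, 1.24 for Cyp2c37, -2.72 for Cyp2d9 and -1.67 for Cyp2u1. With near-copies summed, the sums that hold Cyp2a4, Cyp2a22, Cyp2c40, Cyp2c69 and Cyp2c37 did not pass. Each of these sums also holds copies that were more abundant in WT males, so it cannot test the named genes alone.

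In 40 of the 328 groups tested, 1 mouse lay far from the other 3 of its arm and sex, or from the other 7 of its arm outside liver, by Dixon's criterion, which chance meets in about 1 in 20 groups. In liver the high ones were Cyp2a22 at 343 CPM in R6/2 30 mg/kg male 1 (others 183 to 191) and Cyp2a5 at 2055 CPM in 30 mg/kg male 2 (1340 to 1462). Among the Cyp2b genes they were Cyp2b10 at 229 CPM in 30 mg/kg female 3 (118 to 130) and Cyp2b13 at 311 CPM in 30 mg/kg female 1 (217 to 223). R6/2 100 mg/kg male 3 was high for Cyp2c29 at 8445 CPM (6046 to 6332) and for Cyp2c37 at 1922 CPM (1148 to 1259). Cyp2c38 was at 103 CPM in WT male 2 (34.4 to 44.0), Cyp2c55 at 45.1 CPM in WT female 4 (17 to 21.4) and Cyp2c70 at 831 CPM in R6/2 vehicle male 4 (598 to 622). Cyp2d11 was at 0.465 CPM and Cyp2u1 at 2.98 CPM in 30 mg/kg female 2 (0.272 to 0.304 and 1.47 to 1.63), and Cyp2u1 at 2.87 CPM in R6/2 vehicle female 3 (1.68 to 1.71).

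The low ones in liver were Cyp2b10 at 168 CPM in R6/2 100 mg/kg female 1 (395 to 440), Cyp2c38 at 89.5 CPM in WT female 2 (180 to 193) and Cyp2c55 at 7.15 CPM in R6/2 vehicle female 3 (17 to 19.0). Cyp2d11 was low at 0.714 CPM in WT male 2 (0.906 to 0.93), Cyp2d40 at 21.9 CPM in R6/2 vehicle male 1 (30.1 to 30.5) and Cyp2e1 at 6502 CPM in R6/2 vehicle male 3 (8784 to 8948).

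In heart Cyp2d22 was at 30.2 CPM in R6/2 100 mg/kg male 4 (15.5 to 21.0) and 32.5 CPM in WT male 4 (14.7 to 22.5). Heart Cyp2e1 was at 91.9 CPM in R6/2 vehicle male 2 (3.58 to 39.6) and Cyp2f2 at 94.0 CPM in 100 mg/kg male 3 (0.0554 to 4.55). In striatum R6/2 vehicle male 2 was another mouse than the one so numbered in heart. It had 0.688 CPM of Cyp2c23 (0.124 to 0.233), 30.1 CPM of Cyp2d22 (15.3 to 19.1) and 1.94 CPM of Cyp2u1 (3.5 to 4.77).

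In tibialis most such values came from libraries with the most albumin in their arm. R6/2 vehicle female 1 had 4.76 CPM of Cyp2a4 (0 to 0.276), 3.91 CPM of Cyp2c23 (0.103 to 0.551), 6.45 CPM of Cyp2c69 (0 to 0.251), 41.5 CPM of Cyp2e1 (5.21 to 13.3) and 10.3 CPM of Cyp2f2 (1.41 to 4.46). R6/2 30 mg/kg female 4 had 20.3 CPM of Cyp2a4 (0 to 1.29), 4.76 CPM of Cyp2c23 (0.122 to 0.67), 12.0 CPM of Cyp2c69 (0 to 1.34) and 17.9 CPM of Cyp2f2 (0.848 to 6.58). R6/2 100 mg/kg female 4 had 0.874 CPM of Cyp2a4 (0 to 0.399) and 3.2 CPM of Cyp2c69 (0 to 0.599). WT female 2 had 0.188 CPM of Cyp2a4 (0 to 0.0357) and 0.0376 CPM of Cyp2c69, with the others at 0. R6/2 100 mg/kg male 1 had 20.9 CPM of Cyp2d22 (10.8 to 15.4) and 1.11 CPM of Cyp2u1 (2.06 to 2.62).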

How the results depend on the processing

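Counts of members past the test moved under these settings. DESeq2 gave 1 for 30 mg/kg against vehicle, 2 for 100 against 30 mg/kg and 3 for males against females at 100 mg/kg in liver, each 0 in edgeR, and 1 for R6/2 vehicle against WT in heart. With no filter on low counts, heart gave 5 and cortex 12. Fitting 2 arms only gave 0 in heart and 2 in tibialis. Summing near-copies gave 5 for the sex difference in the genotype effect. Leaving out libraries gave 0 in heart (airway marker), 2 (standing apart) and 1 (albumin) in tibialis, and 0 for males against females in R6/2 vehicle liver (standing apart, or few long transcripts). In cortex and striatum the genotype comparison without libraries that stand apart could not be fitted, since all WT libraries are among them. A comparison of protein sequences was not run. On log2 FPKM, tibialis Cyp2d22 changed by 0.38, where the median of all genes moved by 0.63, so the sign differed but relative to all genes it was lower there too. The cause was not tested in the other cases.

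Deviations of same-numbered mice had a median correlation of -0.049 to 0.102 per tissue, and the numbers were not taken as pairs. The median was highest in heart, at 0.102 against -0.029 for mice of different numbers, and was 0.048 against -0.023 in liver. With the replicate number as a block, heart gave 1, males against females gave 0 in R6/2 vehicle and 9 in WT liver, and the sex difference in the genotype effect gave 11.

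With 1 library left out at a time, liver counts ran from 11 to 13 for R6/2 vehicle against WT, 16 to 17 in males, 3 to 4 in females, 9 to 11 for the difference, 4 to 5 for 100 mg/kg against vehicle, 0 to 1 for 100 against 30 mg/kg, 14 to 19 for 100 mg/kg and 9 to 15 for 30 mg/kg against WT. Males against females gave 11 to 13 in WT, 0 to 3 in R6/2 vehicle and 0 to 1 at 100 mg/kg. For R6/2 vehicle against WT they ran from 0 to 2 in heart, 2 to 5 in tibialis, 3 to 4 in cortex and 6 to 6 in striatum.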

Other observations

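Cyp2c39 in R6/2 livers had 12.4 to 22.5 CPM in 11 mice and 145 to 245 CPM in 13 mice, with none between. WT males had 1.84, 90.8, 34.1 and 32.4 CPM and WT females 184, 8.14, 170 and 212 CPM. The pseudogene Cyp2c53-ps had 0.243 to 3.28 CPM at 100 mg/kg, 0 to 0.432 CPM on vehicle and 0.16 to 3.38 CPM in WT liver.

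Zonal liver genes outside the family were also listed. Of 12 pericentral genes 5 fell and 0 rose, and of 12 periportal genes 7 fell and 0 rose, in R6/2 vehicle against WT females, where 5.34% of all genes passed. In males 1 pericentral gene rose and 0 fell, and 1 periportal gene rose and 2 fell, where 10.1% passed. The test of the difference between the sexes passed in edgeR for 1 of these 24 genes, a pericentral one, where 1.79% of all genes passed.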
